A study of Rattus norvegicus with 210 samples.

Results

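The mediobasal hypothalamus (MBH) of female Sprague-Dawley rats exposed perinatally to diethylstilbestrol (DES), a synthetic estrogen, was compared between libraries labelled postnatal day (PND) 42 and libraries labelled PND22. The members are the 30 libraries of the 3 DES doses at these labelled ages, out of 210 libraries in the series: 15 labelled PND42 against 15 labelled PND22, with dose as a covariate. The dams had received DES by gavage from pregnancy through lactation, at 3 (D3), 6 (D6) or 12 (D12) µg/kg bw/day, and each dose had 5 libraries per labelled age. Dosing had just ended at PND22, and at PND42 the rats were weaned and no longer exposed, so age, weaning and time since exposure cannot be told apart. The 10 MBH libraries of rats whose dams received only the corn oil vehicle, 5 per labelled age, and the libraries labelled PND90 or taken from the preoptic area (POA) serve below as points of comparison. The MBH was cut out by hand, and the labels say neither which libraries came from rats of 1 litter nor whether tissue was pooled, so p-values measure the spread between these libraries and may be too small. The cycle stage of the rats labelled PND42 is not given in the sources used here.

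The MBH holds the arcuate and ventromedial nuclei, whose neurons expressing kisspeptin, neurokinin B and dynorphin pace the release of GnRH, the decapeptide that drives the pituitary and the gonads. Between weaning and the weeks after vaginal opening, division of glial progenitors slows, oligodendrocytes differentiate and lay down myelin, vessels and meninges mature, and the drive on GnRH release changes. Estrogen acts on this network in the developing brain, which is why DES is used as a reference compound for endocrine disruption.

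Levels are given as CPM, a gene's count scaled to a library total of 1000000 counts, as the lowest, median and highest library where 3 values are named. Fold changes come from edgeR's quasi-likelihood fit with TMM scaling, as log2 values with a standard error (SE), and a gene was called at a Benjamini-Hochberg adjusted p-value under 0.05 over all genes tested. The gene counts of a library summed to 16472714 to 24204447 under the label PND22 (median 20782730, n = 15) and to 18610125 to 23420282 under the label PND42 (median 20581141, n = 15).

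The labels were set against transcripts, picked with the results of the age contrast known, whose levels move with age in the POA of the same study, where each DES library has the animal number and labels of an MBH library. Gpr17 encodes a receptor of newly forming oligodendrocytes. In the POA of DES rats its median fell in order from 134 CPM at labelled PND22 to 54.5 CPM at PND42 and 24.9 CPM at PND90 (n = 15 each), and in vehicle MBH libraries it was 102 CPM at PND22 and 38.2 CPM at PND42 (n = 5 each). The MBH libraries of DES rats had 18.8, 41.9 and 59.3 CPM when labelled PND22, and 16.4, 20.8 and 26.2 CPM when labelled PND42. The first set therefore lay at the level of vehicle and POA libraries labelled PND42, and the second at the level of POA libraries labelled PND90.

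The same order held for Alox15, a lipoxygenase. Its median was 54.2 CPM in vehicle MBH libraries labelled PND22 (36.5 to 86) and 4.87 CPM in those labelled PND42 (2.52 to 8.11). In DES libraries labelled PND22 it was 3.77, 5.92 and 9.11 CPM, and in those labelled PND42 0.36, 0.645 and 1.45 CPM, against medians of 39.5, 6.86 and 1.48 CPM in POA DES libraries labelled PND22, PND42 and PND90. No DES library labelled PND22 reached the lowest vehicle library of that label.

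Qdpr, which regenerates the tetrahydrobiopterin cofactor of monoamine synthesis, moved the other way. Its median was 102 CPM in vehicle libraries labelled PND22, 197 CPM in DES libraries labelled PND22, 180 CPM in vehicle libraries labelled PND42 and 365 CPM in DES libraries labelled PND42. In POA DES libraries it was 91.9, 178 and 325 CPM at the 3 labelled ages. The MBH DES libraries labelled PND90 went against this order, with medians of 105 CPM for Gpr17, 43.1 CPM for Alox15 and 108 CPM for Qdpr, close to vehicle libraries labelled PND22. The vehicle libraries labelled PND90 did the same, with medians of 122 CPM for Gpr17, 43.6 CPM for Alox15 and 110 CPM for Qdpr (n = 5). Within the MBH DES libraries labelled PND90, D12 replicates 3, 4 and 5 stood apart: replicates 3 and 4 had 26.6 and 20.9 CPM of Gpr17 and 416 and 405 CPM of Qdpr, whereas replicates 1 and 2 had 95.3 and 109 CPM of Gpr17 and 110 and 101 CPM of Qdpr.

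**Figure D1:**
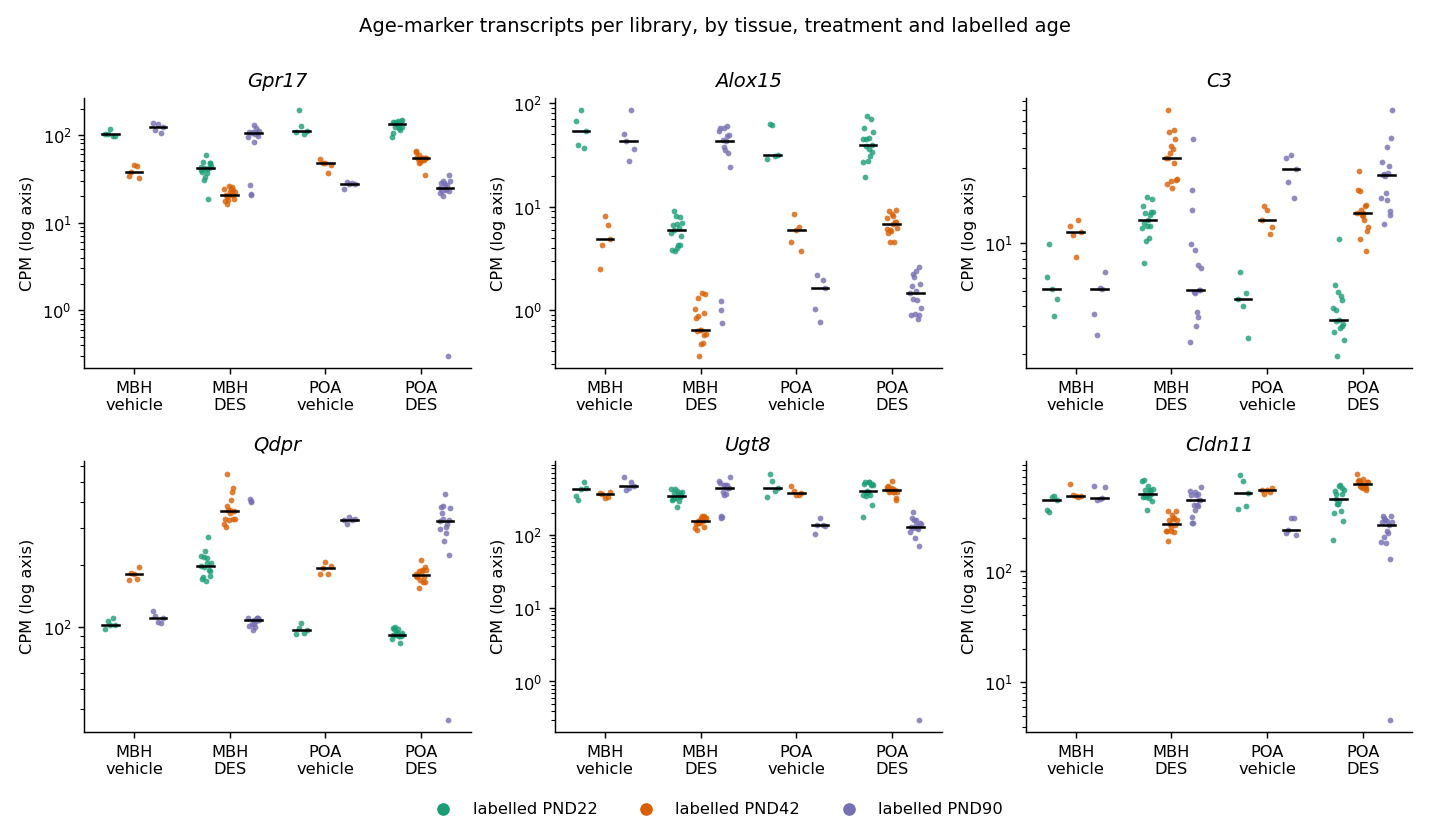
CPM on a log axis of 6 transcripts in each library, by tissue, treatment and labelled age, with bars at the group medians and values under 0.3 CPM drawn at 0.3. In the POA the 3 labelled ages form 1 ordered series for Gpr17, Alox15, C3 and Qdpr, while in the MBH the DES libraries labelled PND22 sit beside vehicle libraries labelled PND42 and those labelled PND42 sit beside POA libraries labelled PND90. One POA DES library labelled PND90 lies far below the others for Gpr17, Qdpr, Ugt8 and Cldn11.

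Contrasts between labelled groups were added after these values were seen. Between DES and vehicle libraries that both carry the label PND22, edgeR called 4765 of 15495 genes (30.8%), and DESeq2 called 5140. Between DES libraries labelled PND22 and vehicle libraries labelled PND42, edgeR called 0 genes (1001 at an unadjusted p under 0.05) and DESeq2 called 4. Between DES libraries labelled PND42 and vehicle libraries labelled PND22, edgeR called 4444 genes (28.7%) and DESeq2 called 4814. Between DES and vehicle libraries that both carry the label PND42, 319 genes were called by edgeR (2.06%), 113 higher (0.729%) and 206 lower (1.33%) in DES libraries, and 518 by DESeq2. These contrasts share libraries with each other. Whether the labelled ages are those of the rats was not tested, and the libraries are therefore named by their labels throughout.

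The dissected region was checked as well. Transcripts of mammillary neurons (7 genes, among them Foxb1 and Lmx1a) had a mean log2(CPM + 0.5) between 1.12 and 2.24 in 13 of the 15 libraries labelled PND22 and between 1.48 and 2.52 in the 15 labelled PND42. In D3 replicate 3 and D12 replicate 4, both labelled PND22, it was -0.41 and -0.34, within or next to the range of POA DES libraries labelled PND22 (-0.54 to -0.3). Their preoptic and basal forebrain markers (7 genes, among them Lhx8 and Zic1) stood at 3.55 and 4.11 against 1.38 to 2.35 in the other 13, and their MBH-defining markers (10 genes, among them Pomc, Agrp and Nr5a1) at 1.14 and 0.69 against 1.74 to 2.55. These 2 libraries had low values for markers of the labelled region and high values for markers of its neighbour, so a count below is also given without them where it differs, an alternative chosen with their earlier values known. In the other 28 libraries the MBH markers were present, with Pomc between 22.3 and 105 CPM. Npy, the arcuate neuropeptide, had 0 counts over the 30 libraries, which allows at most 0.00484 CPM at 3 counts of all reads and covers counting error only, while the neighbouring arcuate transcript Agrp was read in every library (0.64 to 12.7 CPM). Whether reads of Npy were lost in alignment or counting was not tested, so its 0 counts are not read as absence of the transcript.

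**Figure D2:**
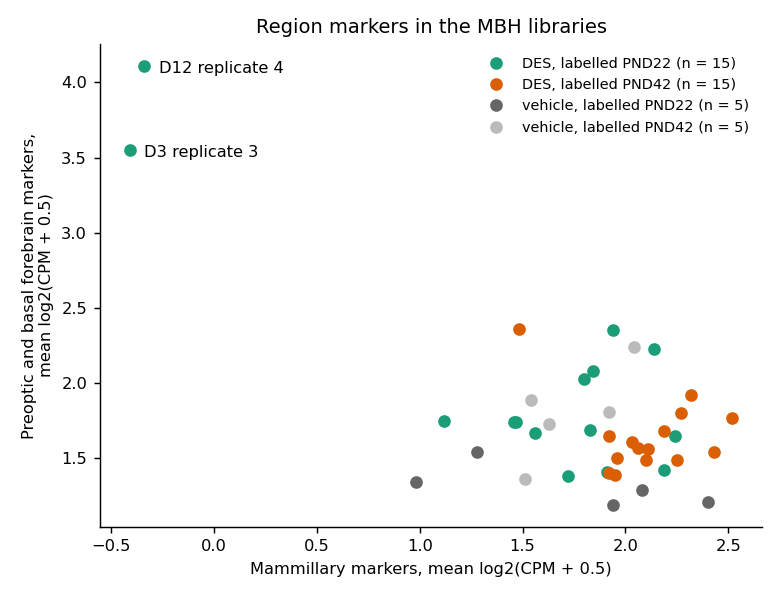
Each point is 1 MBH library, with the mean log2(CPM + 0.5) of 7 mammillary markers on the x axis and of 7 preoptic and basal forebrain markers on the y axis. D3 replicate 3 and D12 replicate 4, labelled PND22, lie at -0.41 and -0.34 on x and at 3.55 and 4.11 on y, away from the other 38 libraries.

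The comparison of the labelled ages asks how the MBH transcriptome of DES-exposed rats differed between the prepubertal and the postpubertal label. Of 15316 genes tested, 1210 were called (7.9%), 453 with higher counts in the libraries labelled PND42 (2.96%) and 757 with lower counts (4.94%), beside a median log2 fold change over all genes of -0.01. Most changes were small: 14 called genes were at least 2-fold higher (0.0914%) and 117 at least 2-fold lower (0.764%). Without the 2 libraries that stand apart in region markers, 1538 of 15404 genes were called (9.98%), 576 higher (3.74%) and 962 lower (6.25%). The transcripts that were lower include markers of oligodendrocytes, dividing cells, cholesterol synthesis, collagen matrix, pericytes, meninges and blood, and those that were higher include markers of the ventral hypothalamus and of tanycytes, complement and interferon genes and 4 genes of the GnRH network. The 15 libraries of one label did not overlap the 15 of the other for 4 genes that were higher (0.0261%) and 11 that were lower (0.0718%).

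Myelin transcripts were lower in the libraries labelled PND42. Of 15 markers of mature oligodendrocytes, the cells that wrap axons, 13 fell and 0 rose (background 4.94% and 2.96%), with a median log2 fold change of -0.71 against -0.01 over all genes. Their summed level was 16100, 23900 and 35400 CPM in the libraries labelled PND22 and 11600, 15500 and 22500 CPM in those labelled PND42, so the sums overlapped. Their most abundant member, Mbp, a myelin membrane protein, had medians of 9270 and 5690 CPM and a log2 fold change of -0.72 (SE 0.14, edgeR adjusted p = 0.00143).

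Ugt8, which makes the galactolipids of myelin, gave 241, 340 and 422 CPM in the libraries labelled PND22 and 114, 155 and 181 CPM in those labelled PND42. The 15 libraries of the first label lay above the 15 of the second, a 2.33-fold difference (log2 fold change -1.22, SE 0.08, edgeR adjusted p = 6.33e-12). Cldn11, a tight junction protein of the myelin sheath, had 352, 494 and 654 CPM against 187, 266 and 345 CPM, again without overlap (log2 fold change -0.95, SE 0.09, adjusted p = 7.01e-08, edgeR).

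The 2 members that did not pass were Tf, which encodes the iron carrier transferrin, and Anln, an actin-binding scaffold of the sheath, the latter named after its values were seen. Tf had medians of 1000 and 1010 CPM and a log2 fold change of 0.03 (SE 0.1, edgeR adjusted p = 0.91), with the sign reversed without the 2 libraries (-0.01). Anln had medians of 31 and 30.9 CPM (log2 fold change -0.06, SE 0.11, edgeR adjusted p = 0.801).

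Markers of differentiating oligodendrocytes were lower for 4 of the 7 tested and higher for 0, beside 4.94% and 2.96% over all genes. Gpr17 fell by 0.97 on the log2 scale (SE 0.1, edgeR adjusted p = 7.26e-08), and the groups overlapped between 18.8 and 26.2 CPM. Bmp4, a ligand that restrains oligodendrocyte maturation, had 5.58, 15.6 and 20.3 CPM against 0.537, 4.74 and 11.7 CPM (log2 fold change -1.47, SE 0.26, edgeR adjusted p = 0.000346). Enpp6, a choline phosphodiesterase of new oligodendrocytes, had medians of 14.9 and 7 CPM (log2 fold change -1.03, SE 0.14). Fyn, a kinase that starts myelination, had 145, 163 and 177 CPM against 124, 134 and 141 CPM, a small difference without overlap (log2 fold change -0.32, SE 0.03, edgeR adjusted p = 1.28e-07). Of 8 precursor markers only Olig2, a lineage transcription factor, was called (log2 fold change -0.26, SE 0.06, edgeR adjusted p = 0.0123). Beside 7.9% called over all genes, this count is not read as a result. The summed level of the precursor list had medians of 353 and 320 CPM.

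Counts for astrocyte, microglial and neuronal markers are given beside the 7.9% called over all genes. Of 10 astrocyte markers, 2 were called, both higher: the glutamate transporter Slc1a3 (log2 fold change 0.22, SE 0.07) and the gap junction gene Gja1 (0.2, SE 0.06). Of 8 microglial markers, only the integrin Itgam was called (0.49, SE 0.11, edgeR adjusted p = 0.00384), and of 8 neuronal markers only Map2 (0.25, SE 0.08, edgeR adjusted p = 0.0402), which encodes a dendritic microtubule protein. Slc1a3 and Gja1 lost the call with a replicate block and without any one of 2 and of 4 libraries. Map2 lost the call with a replicate block and when any of 12 libraries was left out singly, and without the 2 libraries 1 neuronal marker rose and 2 fell. In bulk tissue, fewer cells of a type and less RNA per cell cannot be told apart.

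Part of the cell cycle genes had lower counts in the libraries labelled PND42. Of 29 tested, 14 fell, 0 rose and 15 did not pass, with a median log2 fold change of -0.47, and 17 fell without the 2 libraries. Over all genes 4.94% fell and 2.96% rose, and 6.25% fell without the 2 libraries. The summed level of the list, in which Pcna was most abundant, overlapped between the labels, with 144, 160 and 204 CPM at labelled PND22 and 138, 155 and 172 CPM at labelled PND42. Top2a, a topoisomerase of replicating cells, had 1.54, 2.6 and 4.37 CPM in the libraries labelled PND22 and 0.483, 0.93 and 1.79 CPM in those labelled PND42. The groups overlapped between 1.54 and 1.79 CPM, and the log2 fold change was -1.41 (SE 0.16, edgeR adjusted p = 4.94e-07). Mki67, the gene of the Ki-67 proliferation antigen, had medians of 2.8 and 1.01 CPM (log2 fold change -1.24, SE 0.18, edgeR adjusted p = 1.74e-05), and Cdk1, the kinase that starts mitosis, named after its values were seen, had medians of 1.09 and 0.489 CPM (log2 fold change -1.18, SE 0.21, edgeR adjusted p = 0.000372).

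The 3 most abundant members did not pass: the replication clamp Pcna had medians of 43 and 41.6 CPM (log2 fold change -0.05, SE 0.08), and the helicase subunits Mcm4 and Mcm7 had log2 fold changes of 0.13 and 0.08. The summed level of the list, to which Pcna gave the most counts, had medians of 160 and 155 CPM.

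The promoters of cell cycle genes are known for a pair of short elements, the CCAAT box bound by NF-Y and the CHR element TTTGAA bound by the DREAM and B-MYB complexes. Promoters were matched by symbol for 24 of the 30 list genes (RefSeq, build GRCr8, from 250 bases before to 50 after the gene start), 12 of them among the 14 that fell. CCAAT or its reverse ATTGG was present in 19 of the 24 (79.2%) and in 37.5% of all 33469 promoters of the table. TTTGAA or its reverse TTCAAA was present in 11 of the 24 (45.8%) and in 18.3% of all promoters. For list genes only the first promoter of each gene was counted, while the shares over all promoters count every promoter of the table. Among the 12 matched genes that fell, 11 held CCAAT and 8 held TTTGAA, on either strand. Among the other 12 matched genes of the list, 8 held CCAAT and 3 held TTTGAA. The 250 bases before the start are shown for 3 genes that fell, Top2a, Mki67 and Cdk1, and for Pcna, which did not pass. Capitals mark both motifs, read on either strand, and a match describes letters, not binding.
Top2a, chr10:84473094-84473343, minus strand: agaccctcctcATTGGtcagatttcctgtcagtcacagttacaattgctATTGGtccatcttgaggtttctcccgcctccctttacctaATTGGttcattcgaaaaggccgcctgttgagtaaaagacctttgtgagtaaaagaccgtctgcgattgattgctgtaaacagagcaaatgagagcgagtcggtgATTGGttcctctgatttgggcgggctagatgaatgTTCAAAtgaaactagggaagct
Mki67, chr1:199952594-199952843, minus strand: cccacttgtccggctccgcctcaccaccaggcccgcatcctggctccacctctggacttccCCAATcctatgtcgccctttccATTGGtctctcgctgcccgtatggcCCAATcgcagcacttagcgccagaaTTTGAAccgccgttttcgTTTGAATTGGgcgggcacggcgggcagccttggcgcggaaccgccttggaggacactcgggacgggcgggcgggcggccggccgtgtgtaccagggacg
Cdk1, chr20:19265043-19265292, plus strand: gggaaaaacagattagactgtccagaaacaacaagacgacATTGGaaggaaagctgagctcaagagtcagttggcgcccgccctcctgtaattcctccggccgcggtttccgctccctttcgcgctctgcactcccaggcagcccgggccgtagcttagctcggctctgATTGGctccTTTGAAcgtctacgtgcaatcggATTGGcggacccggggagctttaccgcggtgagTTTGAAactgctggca
Pcna, chr3:139955821-139956070, minus strand: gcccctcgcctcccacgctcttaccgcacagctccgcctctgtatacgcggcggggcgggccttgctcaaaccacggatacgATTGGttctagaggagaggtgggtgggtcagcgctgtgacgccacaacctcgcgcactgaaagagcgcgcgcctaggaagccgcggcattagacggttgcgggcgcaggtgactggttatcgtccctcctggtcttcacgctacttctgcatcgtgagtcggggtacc

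Top2a held 4 CCAAT boxes on either strand and 1 TTTGAA, Mki67 held 4 and 2 (1 pair overlapping by 1 base), Cdk1 held 3 and 2, and Pcna held 1 and 0.

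Cholesterol, which myelin takes up in bulk, is made by a chain of enzymes that share their control. Of 23 genes of this chain tested, 9 fell and 0 rose, with a median log2 fold change of -0.22, and 12 fell without the 2 libraries. The shares over all genes were 4.94% lower and 2.96% higher, and 6.25% lower without the 2 libraries. Cyp51, the lanosterol demethylase, had 230, 324 and 363 CPM in the libraries labelled PND22 and 207, 239 and 273 CPM in those labelled PND42. D3 replicate 3 gave the lowest value of the first label, 230 CPM, and without it and D12 replicate 4 the groups did not overlap (lowest 296 CPM). The log2 fold change was -0.46 (SE 0.06, edgeR adjusted p = 2.45e-06). Idi1, which isomerizes the isoprenoid unit, changed by -0.48 (SE 0.07, edgeR adjusted p = 6.42e-05), and Hmgcs1, the synthase at the entry of the chain, by -0.38 (SE 0.05, edgeR adjusted p = 4.9e-06). Fdps, an enzyme in the middle of the chain, was at -0.1 and did not pass.

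Transcripts of collagen matrix, meninges, blood and pericytes were lower. Of 16 genes of collagen and interstitial matrix, 10 fell and 0 rose (median log2 fold change -0.87), and 11 fell without the 2 libraries. The shares over all genes were 4.94% lower and 2.96% higher, with 6.25% lower without the 2 libraries. Col3a1, a fibrillar collagen, had 9.59, 38.8 and 99.1 CPM in the libraries labelled PND22 and 3.75, 6.83 and 16 CPM in those labelled PND42, a 4.67-fold difference with some overlap (log2 fold change -2.22, SE 0.27, edgeR adjusted p = 1.8e-06). Col1a1 and Eln, the genes of type I collagen and elastin, changed by -1.97 (SE 0.28) and -1.85 (SE 0.23). The most abundant member, Sparc, a matrix glycoprotein that astrocytes also make, had medians of 2490 and 2340 CPM (log2 fold change -0.11, SE 0.08) and did not pass, nor did Fn1 (-0.28), the gene of fibronectin.

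Markers of tissue around the parenchyma were lower in the same libraries, and their counts stand beside 4.94% lower over all genes. Of 7 meningeal and fibroblast markers, which share Col1a1, Dcn, Lum and Igf2 with the matrix list, 6 fell, and their summed level went from 54.9, 258 and 431 CPM to 31.4, 58.8 and 178 CPM. Igf2, a growth factor of the leptomeninges, is the most abundant of them and had medians of 174 and 35.9 CPM (log2 fold change -1.67, SE 0.29, edgeR adjusted p = 0.000382). The 4 erythroid genes tested fell, with summed levels of 380, 725 and 1310 CPM against 117, 244 and 659 CPM, led by Hba-a1 (log2 fold change -1.43, SE 0.2). Reads of the near-identical globin copies Hba-a1, Hba-a2 and Hba-a3 cannot be assigned with certainty. None of these markers was at 0 in all 30 libraries, and their part in the fall of the matrix genes was not tested.

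Counts of vessel and net markers stand beside 4.94% lower and 7.9% called over all genes. Of 6 pericyte markers 4 fell: Anpep (log2 fold change -0.96), Vtn (-0.72), Kcnj8 (-0.55) and Pdgfrb (-0.33), which encode an aminopeptidase, vitronectin, a potassium channel and the receptor that recruits these cells to vessels. Pdgfrb lost the call without any one of 2 libraries. Of 7 endothelial markers only Kdr, the main receptor for VEGF, was called (-0.42, SE 0.1, edgeR adjusted p = 0.0077). Of 12 genes of perineuronal nets and hyaluronan matrix, Tnc (-0.44) and Hapln1 (-0.39) were called, a glycoprotein and a link protein. The endothelial and net lists are short, and beside 7.9% over all genes their counts are not read as a result. Hapln1 lost the call with no filter, with a replicate block and without any one of 21 of the 30 libraries, and Tnc without any one of 9.

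**Figure D3:**
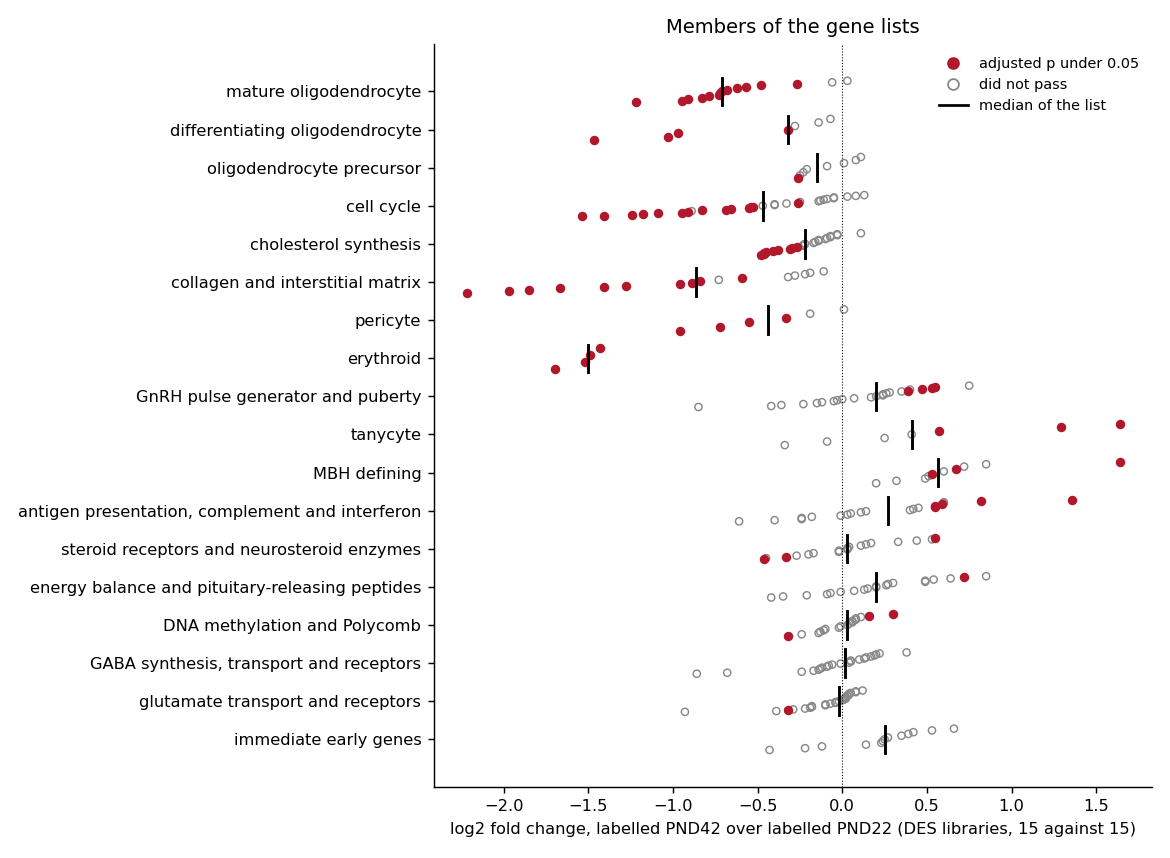
Log2 fold change of each tested member of 18 gene lists, labelled PND42 over labelled PND22 in DES libraries (15 against 15), with filled points for genes called at an adjusted p under 0.05, open points for the others and bars at the list medians. The called points of the oligodendrocyte, cell cycle, cholesterol, matrix, pericyte and erythroid lists lie left of 0, and those of the GnRH, tanycyte, MBH and immune lists lie right of 0.

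Among the genes of the GnRH pulse generator and of puberty, 4 of 23 tested rose and 0 fell, beside a background of 2.96% and 4.94%, and 6 rose without the 2 libraries. Kiss1r, the kisspeptin receptor, had 2.79, 4.04 and 5.82 CPM in the libraries labelled PND22 and 3.67, 5.8 and 8.46 CPM in those labelled PND42 (log2 fold change 0.55, SE 0.11, edgeR adjusted p = 0.000931). Pdyn, the dynorphin precursor that ends each pulse, had 41.3, 84.1 and 131 CPM against 76.9, 126 and 174 CPM (log2 fold change 0.47, SE 0.13, edgeR adjusted p = 0.0196). The groups overlapped for both genes. Nkx2-1, a transcription factor of the ventral hypothalamus, was higher by 0.53 (SE 0.12, edgeR adjusted p = 0.00448), and Dlk1, a Notch ligand linked to the timing of puberty, by 0.39 (SE 0.12, edgeR adjusted p = 0.0427). Dlk1 lost the call without any one of 15 of the 30 libraries and with a replicate block. Nkx2-1 is also an MBH-defining marker. Region markers are given for the same comparison. Of 10 MBH-defining markers 3 rose (median log2 fold change 0.57), and of 7 mammillary markers 0 were called (0.6). Of 7 preoptic and basal forebrain markers 1 rose and 3 fell (-1.01), and of 12 thalamus markers 0 were called (-0.8). The part of region markers in the 4 rises was not tested.

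The kisspeptin and neurokinin B genes did not pass. Kiss1 had 0.855, 1.61 and 4.7 CPM against 1.24, 2.47 and 4.76 CPM (log2 fold change 0.4, SE 0.22, edgeR adjusted p = 0.303). The highest values of the first label, 4.7 and 4.31 CPM, came from D3 replicate 3 and D12 replicate 4, and without these libraries the difference was called (0.67, adjusted p = 0.0202, edgeR). Tac3 had medians of 17.3 and 21.7 CPM (log2 fold change 0.26, SE 0.16). Gnrh1, whose neurons lie in the POA and not in the MBH, had medians of 1.28 and 1.42 CPM, with 14.8 and 12.3 CPM in the same 2 libraries, and its log2 fold change of -0.85 (SE 0.44) turned to 0.16 without them.

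Of 18 genes of steroid receptors, steroid response and neurosteroid synthesis, 1 rose and 2 fell, beside 2.96% and 4.94% over all genes, and 3 rose and 2 fell without the 2 libraries. Greb1, an estrogen-induced gene, was higher (log2 fold change 0.55, SE 0.17, edgeR adjusted p = 0.0392), but not called without any one of 15 of the 30 libraries. Srd5a1, the 5-alpha-reductase, was lower (-0.33, SE 0.09, edgeR adjusted p = 0.0244), and so was Gper1, a membrane estrogen receptor (-0.46, SE 0.15, edgeR adjusted p = 0.0491), which lost the call without any one of 23 libraries, with RLE scaling, with no filter or a stricter one, with a replicate block and without the dose term. The estrogen receptor gene Esr1 had 3.24, 7.15 and 48.9 CPM against 6.73, 11.8 and 17.6 CPM (log2 fold change 0.04, SE 0.26), where the highest value came from D3 replicate 3. The progesterone receptor gene Pgr had medians of 8.52 and 11.9 CPM (log2 fold change 0.44, SE 0.18, edgeR adjusted p = 0.135) and was called without the 2 libraries (0.57, adjusted p = 0.0352, edgeR).

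Of 20 peptides and receptors of energy balance, only Ghsr, the ghrelin receptor, was called (log2 fold change 0.72, SE 0.17, edgeR adjusted p = 0.00679), and 2 were without the 2 libraries. Over all genes 7.9% were called (9.98% without the 2 libraries), so the counts of the energy and oxytocin lists are not read as a result. Pomc, the precursor of alpha-MSH and a defining marker of the arcuate nucleus, had 2.08, 31.9 and 55.4 CPM against 34.6, 64.8 and 105 CPM (log2 fold change 0.85, SE 0.29, edgeR adjusted p = 0.0695), with 2.08 and 3.04 CPM in D3 replicate 3 and D12 replicate 4, and was called without them (0.65, adjusted p = 0.0129, edgeR). Agrp had a median of 6.09 CPM under both labels (log2 fold change 0.2, SE 0.26). Of the 5 genes of oxytocin and vasopressin signalling, the receptor gene Oxtr was called (0.75, SE 0.23, edgeR adjusted p = 0.0347), but not with a replicate block, without the dose term or without any one of 6 libraries. The 2 hormone genes varied widely between libraries, Oxt from 14.5 to 252 CPM and Avp from 36.7 to 243 CPM, with log2 fold changes of 0.01 (SE 0.32) and -0.18 (SE 0.27).

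Tanycytes, the glia that line the floor of the third ventricle, and the nuclei around them gave higher values for some markers. Of 7 tanycyte markers 3 rose and 0 fell, and of 10 MBH-defining markers 3 rose and 0 fell, beside 2.96% and 4.94% over all genes. Without the 2 libraries 3 tanycyte markers rose and 1 fell, and 5 MBH-defining markers rose, beside 3.74% and 6.25% over all genes. Crym, a thyroid hormone binding protein, had 5.18, 19.5 and 28.7 CPM against 31.3, 43.7 and 75.3 CPM, without overlap (log2 fold change 1.29, SE 0.19, edgeR adjusted p = 2.39e-05). Rax, the transcription factor that defines tanycytes and counts in both lists, had 0, 0.392 and 1.13 CPM against 0.7, 1.42 and 2.74 CPM (log2 fold change 1.64, SE 0.3, edgeR adjusted p = 0.000627), D3 replicate 3 and D12 replicate 4 being at 0. Gpr50, an orphan receptor of tanycytes, was higher by 0.57 (edgeR adjusted p = 0.0464) and lost the call without them (adjusted p = 0.0792, edgeR) and without any one of 19 libraries. Fezf1, a ventromedial transcription factor, was higher by 0.67 (SE 0.18). The summed level of the MBH-defining markers, led by Pomc, had medians of 84.9 and 118 CPM, and 0 of 7 mammillary markers were called (median log2 fold change 0.6, 3 higher without the 2 libraries). The part of the tissue cut in these rises was not tested.

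Region markers were among the largest fold changes. Over all genes 2.96% rose and 4.94% fell, or 3.74% and 6.25% without the 2 libraries. Of 7 preoptic and basal forebrain markers 1 rose and 3 fell, and without the 2 libraries 1 rose and 0 fell. Of 12 thalamus markers 0 were called by edgeR, but their median log2 fold change was -0.8 (-0.94 without the 2 libraries), and their summed level was 79.6, 518 and 1710 CPM in the libraries labelled PND22 and 83.1, 361 and 1360 CPM in those labelled PND42. Lhx8, a transcription factor of the basal forebrain, had a log2 fold change of -3.1 (SE 0.8) and lost the call without the 2 libraries (-0.51, edgeR adjusted p = 0.491). Zic1 (-1.03) and Tbr1 (-1.31), a cortical factor and the 1 of 5 cortex markers called, lost it too (edgeR adjusted p = 0.0602 and 0.0936), and 0 of 6 striatal markers were called (1 higher without the 2 libraries). Ttr, the transthyretin gene of the choroid plexus, reached 1850 CPM in D12 replicate 4 and 385 CPM in another library labelled PND22, against medians of 0.702 and 1.26 CPM under the 2 labels, and its log2 fold change of -5.48 (SE 1.65) was no longer called without the 2 libraries (-3.88, edgeR adjusted p = 0.0704). Of 6 choroid plexus markers 2 fell, and without the 2 libraries 1 rose and 1 fell. The choroid plexus channel Kcnj13 kept the call without the 2 libraries (-1.87, edgeR adjusted p = 0.0291), but lost it in 1 of 30 fits without a single library. Moxd1, a monooxygenase of preoptic neurons, also kept the call and was higher in the libraries labelled PND42 (1.21, edgeR adjusted p = 4.61e-06).

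Of 5 pituitary markers tested 1 rose and 1 fell, beside 2.96% and 4.94% over all genes, and 1 rose and 2 fell without the 2 libraries. In so short a list these counts are not read as a result. Tshb, the beta chain of thyrotropin, had 0, 49.4 and 143 CPM against 2.32, 12.6 and 36 CPM (log2 fold change -1.77, SE 0.49, edgeR adjusted p = 0.0215). Prl, the prolactin gene, had medians of 0 and 0.366 CPM and a highest value of 20.4 CPM at labelled PND42, so that its fitted log2 fold change of 3.76 rests on few counts. The summed level of 5 pituitary genes ranged from 4.11 to 377 CPM in the libraries labelled PND22 and from 14.9 to 129 CPM in those labelled PND42, with Cga, the alpha chain of the glycoprotein hormones, as the most abundant of them.

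Genes of complement, antigen presentation and interferon response rose for 5 of 20 tested and fell for 0, beside 2.96% and 4.94% over all genes. Without the 2 libraries 4 of them rose, beside 3.74% over all genes. C3, the central complement component, had 7.53, 14 and 19.8 CPM against 22.4, 34.9 and 69.6 CPM, without overlap (log2 fold change 1.36, SE 0.15, edgeR adjusted p = 5.65e-07). Ifit3, Irf7, Tap1 and RT1-A2, which act in the interferon response and in loading peptides on MHC class I, were higher by 0.82, 0.59, 0.55 and 0.55. RT1-A2 lost the call without the 2 libraries (adjusted p = 0.0635, edgeR), with a replicate block and in 1 of 30 fits without a single library. RT1-A2 belongs to a family of near-identical genes, so its reads are uncertain.

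Of 17 genes of DNA methylation and Polycomb repression, 2 rose and 1 fell, beside 2.96% and 4.94% over all genes. Cbx7, a subunit of Polycomb complex 1, had 58.3, 67.4 and 72.5 CPM against 75.9, 85.5 and 97.9 CPM, a small rise without overlap (log2 fold change 0.3, SE 0.03, edgeR adjusted p = 5.65e-07). Of the alternative methyltransferase subunits, Ezh1 changed by 0.16 (SE 0.04) and Ezh2 by -0.32 (SE 0.09), and Ezh2 lost the call without a filter and without any one of 3 libraries. The DNA methyltransferase gene Dnmt3a had medians of 20.8 and 19.7 CPM (log2 fold change -0.11, SE 0.16), and Mkrn3, an inhibitor of puberty, had medians of 1.52 and 1.22 CPM (-0.42, SE 0.14, edgeR adjusted p = 0.0701). Of 6 genes picked for PCR in other rats, exposed at puberty or as adults, Cbx7 was called as higher and Gpr17 as lower, while Oxt, Avp, Mkrn3 and Dnmt3a were not called. A list of 63 tested GnRH-regulating genes was tabulated in the study with MBH values at PND22 and PND90. It shares the libraries labelled PND22 and is therefore no independent evidence. Of these 63 genes, 8 rose (9 without the 2 libraries) and 9 fell, beside 2.96% and 4.94% over all genes. Among them were the thyrotropin receptor gene Tshr (0.57, SE 0.15) and the spindle gene Prc1 (-0.66, SE 0.15).

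The lists of synaptic genes are short, and with 7.9% called over all genes their counts are not read as a result. Of 22 genes of GABA synthesis, transport and receptors 0 were called by edgeR (2 higher without the 2 libraries), and 0 of 7 dopamine genes (median log2 fold change 0.11) and 0 of 13 immediate early genes (median 0.25, or 0.42 without the 2 libraries). The GABA receptor subunit gene Gabrd, not called, had 0.427, 27.3 and 98.8 CPM against 1.18, 16.2 and 67.9 CPM (log2 fold change -0.86, SE 0.61). Of 27 glutamate genes only the kainate receptor gene Grik1 was called (log2 fold change -0.32, SE 0.06, edgeR adjusted p = 0.00163). Of 19 genes of ion channels and nodes of Ranvier, Nfasc, which anchors the node, was lower (-0.48, SE 0.08, edgeR adjusted p = 0.00012), and so was the neurofilament gene Nefm (-0.46, SE 0.13), which lost the call without any one of 2 libraries. Without D3 replicate 3 and D12 replicate 4, 3 genes of this list were lower. Of 22 genes of immature neurons and axon growth, the guidance cue Slit2 was higher (0.45, SE 0.11) and Marcksl1 lower (-0.37, SE 0.1), and of 16 clock genes only Dbp, an output of the clock, was called (-0.35, SE 0.09), and 2 were lower without the 2 libraries. Of 9 genes of thyroid hormone signalling only Crym was called, and 0 of 6 ependymal markers were. Without the 2 libraries 2 thyroid genes rose and 1 fell, and 1 ependymal marker rose and 1 fell.

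Other genes with large changes were Hspa1b, a heat shock protein (log2 fold change 2.7, SE 0.58), which varied from 0.291 to 20.5 CPM among libraries labelled PND42, Nr5a2 (1.1), a nuclear receptor, the carboxylesterase Ces1d (0.95), the glutathione peroxidase Gpx2 (0.93) and Aadat (0.88), an enzyme of kynurenine metabolism. Among those that fell were the organic anion transporter Slc22a6 (-1.91), the water channel Aqp1 (-1.79) and Alas2 (-1.7), the first enzyme of heme synthesis in red cells. Alox15 had the smallest adjusted p among the 10 largest falls (log2 fold change -2.87, SE 0.19, edgeR adjusted p = 7.21e-12), with no overlap between the labels.

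Taken dose by dose in 1 fit of 6 groups, 57 genes were called in D3 (0.372%), 133 in D6 (0.868%) and 101 in D12 (0.659%), 5 libraries against 5. In D3, 7 of them were higher (0.0457%) and 50 lower (0.326%), in D6 23 (0.15%) and 110 (0.718%), and in D12 22 (0.144%) and 79 (0.516%). For Ugt8 the log2 fold change was -1.13 in D3, -1.13 in D6 and -1.39 in D12, and for Alox15 -2.91, -2.97 and -2.75, called at each dose. Kiss1r was called only in D12 (0.31, 0.52 and 0.83, edgeR adjusted p = 0.973, 0.197 and 0.0171). The test of the difference between doses, the interaction of labelled age and dose, called 0 of 15316 genes with edgeR (233 at an unadjusted p under 0.05) and 1 with DESeq2, so no gene was shown to change differently with dose by edgeR. The number of calls per dose depended on single libraries: it was 19 in D3 without replicate 2 labelled PND42, 317 in D6 without replicate 1 labelled PND22, and 223 in D12 without replicate 4 labelled PND42. Without D3 replicate 3 and D12 replicate 4 labelled PND22 the D3 count was 67, the D6 count 153 and the D12 count 62. The doses are therefore not ranked by it.

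**Figure D4:**
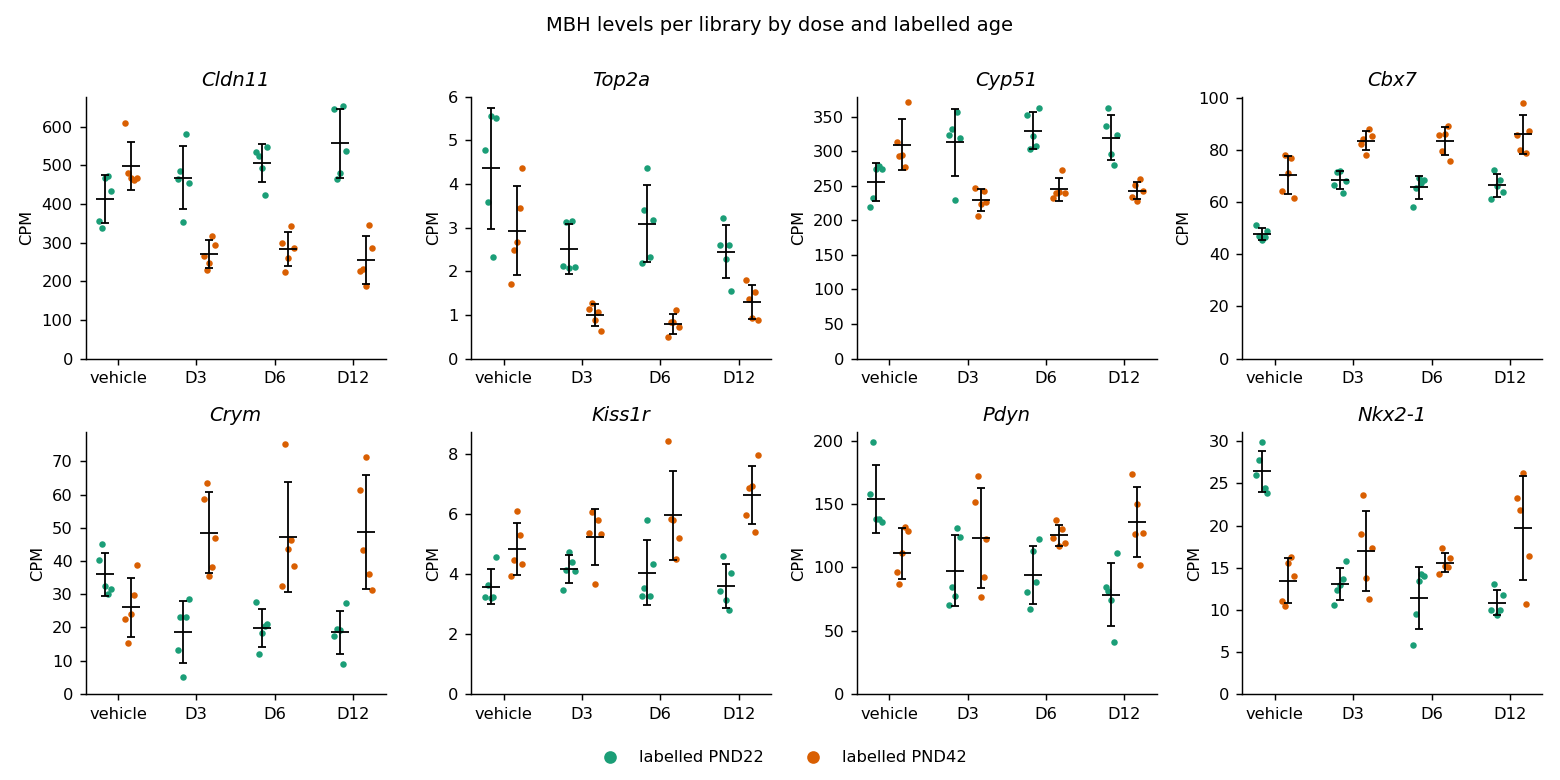
CPM of 8 genes in each MBH library by dose and labelled age, with the mean and SD of 5 libraries. For Cldn11, Top2a and Cyp51 the means of libraries labelled PND42 lie below those labelled PND22 at each DES dose, for Cbx7, Crym, Kiss1r, Pdyn and Nkx2-1 above, while in vehicle libraries Cldn11 and Cyp51 go up and Crym, Pdyn and Nkx2-1 go down.

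The vehicle libraries give the same contrast without DES, 5 against 5, and share no library with the DES contrast. In them, 732 of 15495 genes were called (4.72%), 441 higher (2.85%) and 291 lower (1.88%) at labelled PND42. The difference between the 2 contrasts, the interaction of labelled age and exposure, was called for 804 genes (5.19%), 273 with a more positive change in DES libraries (1.76%) and 531 with a more negative one (3.43%). Without D3 replicate 3 and D12 replicate 4 it was called for 1501 genes, and without D12 replicate 4 labelled PND42 for 1435. Without replicate 1 of the vehicle libraries labelled PND42, the vehicle contrast called 405 genes and the interaction 365. Without D6 replicate 1 labelled PND22, which enters the vehicle contrast only through the gene filter, the scaling and the spread estimated over all groups, that contrast called 1327 genes. In the check above, DES libraries labelled PND22 lay at the levels of vehicle libraries labelled PND42, and the part of this in the interaction was not tested.

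The list counts that follow stand beside these shares over all genes: in vehicle libraries 2.85% rose and 1.88% fell. The interaction was more positive for 1.76% of all genes and more negative for 3.43%. Mature oligodendrocyte genes differed between the contrasts: 5 of 15 rose and 0 fell in vehicle libraries (median log2 fold change 0.44), against 13 that fell in DES libraries. Their interaction was called as more negative for 14. Ugt8 had medians of 413 and 357 CPM in vehicle libraries labelled PND22 and PND42 (log2 fold change -0.14, SE 0.14), with an interaction of -1.08 (SE 0.16, edgeR adjusted p = 7.38e-05). Tf, at 0.03 in DES libraries, rose in vehicle libraries from a median of 361 to 958 CPM (log2 fold change 1.54, SE 0.17). Of 23 cholesterol genes, 3 rose and 1 fell in vehicle libraries, and 12 had a more negative interaction. MBH-defining markers had a median log2 fold change of -0.74 in vehicle and 0.57 in DES libraries, with 5 of 10 called as more positive, among them Nr5a1 (interaction 1.8), the factor of the ventromedial nucleus. Nkx2-1 had 23.9 to 29.9 CPM in vehicle libraries labelled PND22, above all 30 DES libraries but 1 of those labelled PND42 (26.2 CPM).

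Over all genes the interaction was called for 5.19%. Cell cycle genes had 0 called interactions of 29 with edgeR, collagen and matrix genes 0 of 16 and erythroid genes 0 of 4, which does not show that their changes were alike. Their median log2 fold changes in vehicle libraries were -0.16, -0.8 and -1.26. Among genes whose log2 CPM averaged 1 or more, the largest positive interactions beside Nr5a1 were Fzd5 (2.08), a Wnt receptor, the receptor gene Pgr15l (1.87), Hdc (1.78), which makes histamine, and Bsx (1.78), a homeobox factor of the arcuate nucleus. Among the most negative were Shox2 (-8.27), a homeobox factor of thalamic neurons, Mybpc1 (-4.98), Gabrd (-4.86), a subunit of extrasynaptic GABA receptors, and the kinase gene Prkcd (-4.72), of which Mybpc1 and Prkcd belong to the thalamus list. Of 12 thalamus markers 0 were called in DES libraries, 2 rose in vehicle libraries and 10 had a more negative interaction. The shares over all genes were 7.9% called in DES libraries, 2.85% higher in vehicle libraries and 3.43% with a more negative interaction. The 12 thalamus markers had a mean log2(CPM + 0.5) of 2.12 to 2.52 in vehicle libraries labelled PND22, 2.51 to 5.4 in those labelled PND42, 2.8 to 5.88 in 13 DES libraries labelled PND22 and 2.18 to 5.78 in those labelled PND42, with Prkcd as their most abundant gene. Oxt was low in the same vehicle libraries, with 2.28, 7.81 and 13.6 CPM in vehicle libraries labelled PND22 and a median of 98 CPM in those labelled PND42, 106 CPM in DES libraries labelled PND22 and 93.8 CPM in those labelled PND42. How much of these interactions comes from the tissue cut was not tested.

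**Figure D5:**
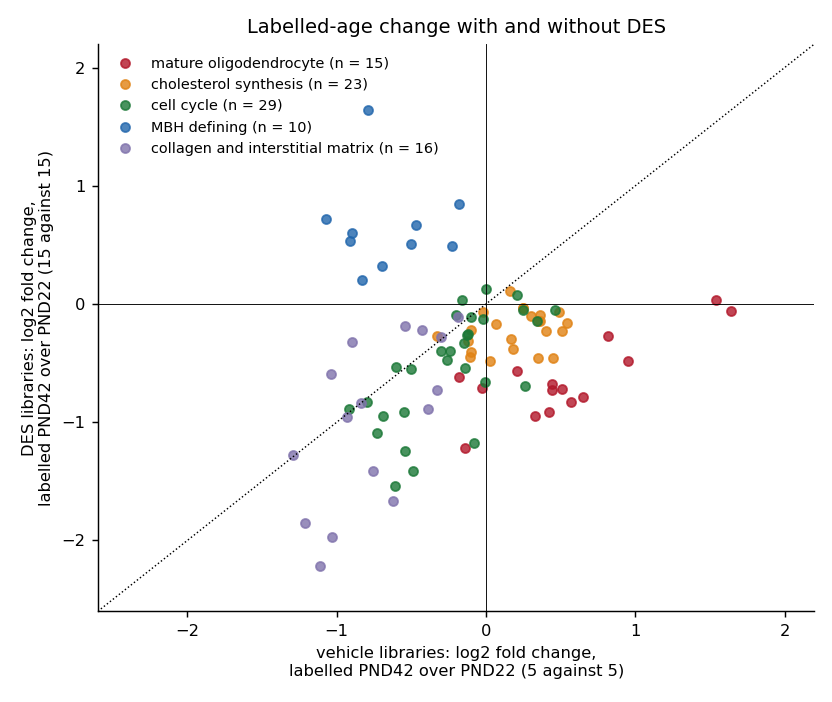
Log2 fold change of labelled PND42 over labelled PND22 in vehicle libraries (x axis, 5 against 5) and in DES libraries (y axis, 15 against 15) for the members of 5 gene lists, 1 point per gene, with equal changes on the dotted line. Mature oligodendrocyte and cholesterol genes lie mostly right of 0 and below it, MBH-defining genes lie left of 0 and above it, and collagen genes lie below 0 on both axes.

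The POA of DES rats gives a second pair of age contrasts from other libraries, which carry the same animal numbers as the MBH libraries and so are not an independent set of rats. The log2 fold change of Ugt8 there was 0.01 from labelled PND22 to PND42 and -1.7 from PND42 to PND90, beside -1.22 in the MBH. The same 3 values were 0.51, -1.42 and -0.95 for Cldn11. They were -0.23, -1.44 and -1.41 for Top2a, 0.23, -2.36 and -2.22 for Col3a1, and 0.35, -0.59 and -0.46 for Cyp51. For these 5 genes the MBH value lay nearer to the later POA contrast. Over 1200 of the called MBH genes that were tested in the POA, the MBH change correlated with the POA change from PND42 to PND90 at r = 0.81 (rho = 0.8, same sign for 1066) and with that from PND22 to PND42 at r = 0.09 (rho = 0.15, same sign for 708). These values describe genes, which are not independent and share libraries and base composition within each contrast, and no p-value is attached to them. Crym, at 1.29 in the MBH, had 1.05 and -0.58 in the POA, nearer to the earlier contrast. Among POA DES libraries labelled PND42, mammillary markers reached a mean log2(CPM + 0.5) of 1.53 (median -0.55). Their preoptic markers went down to 1.54 (median 4). The POA library D6 replicate 2 labelled PND90 had 0.0524 CPM of Ugt8 and 4.61 CPM of Cldn11. No POA library was left out of these contrasts or correlations, and the part of such libraries in them was not tested.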

How the data were processed

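RNA-seq of hand-dissected MBH from female rats was analysed in the 30 DES libraries labelled PND22 or PND42 and, for comparison, in the 10 vehicle libraries, the MBH DES libraries labelled PND90 and 45 POA DES libraries. According to the labels and the methods of the study, the authors made stranded polyA libraries, demultiplexed paired reads with bcl2fastq 2.20, aligned them to Rnor_6.0 with STAR and summarised them over Ensembl genes with featureCounts. The counts were deposited by the authors as whole numbers per gene without normalization, for 32883 genes. The strand setting and the treatment of multi-mapping reads are not given in the sources used here. No column of per-sample values was left without a sample (0 columns).

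Counts were fitted as deposited with edgeR 4.0.16 in R 4.3.3 (TMM, filterByExpr with a minimum count of 10, quasi-likelihood test, Benjamini-Hochberg adjustment over all genes tested, threshold 0.05). The age contrast used the 30 DES libraries with dose as a factor, and the contrasts by dose and the age by dose interaction used 6 groups of the same libraries. The vehicle contrast and the age by exposure interaction used 8 groups of 40 libraries, with the mean of the 3 doses. DESeq2 1.42.0 was an alternative, beside another scaling, no filter, a stricter filter (log2 CPM averaging 1 or more), an adjusted p under 0.01, no dose term, a replicate block and each library left out in turn. The fit was tested on simulated counts with 200 changed genes.

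The libraries and the 40 gene lists were chosen with earlier results of these data known. Genes are named by these rules. Named are the 10 largest rises and 10 largest falls among called genes that have a symbol, the same sign at each dose and a log2 CPM averaging 1 or more. In each list they are the 2 called members with the largest rise and the 2 with the largest fall, members of a direction with at most 5, and the 3 most abundant. Added are the genes picked for PCR (one of them given as Dnmt3 in the text of the study and taken here as Dnmt3a), the 5 largest interactions each way, and Kiss1, Tac3, Pdyn, Gnrh1, Esr1, Pgr, Agrp and Pomc. Npy, Cdk1, Anln, Dcn and Lum were named after their values were seen, and some genes that the rules allow are counted without being named or are not reported here. Promoters came from RefSeq (GRCr8) by symbol.

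No libraries of a group agreed within sampling noise (smallest chi-square per gene 6.06).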

Additional observations from a re-analysis of the deposited data

Results flagged for a closer look

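Library totals and means of region markers were checked in 40 groups of 5 values. The gap of the highest or lowest library to its neighbour passed Dixon's critical value 5 times, each time for region markers. Chance gives about 1 in 20, but the groups share libraries and are not independent. The flagged libraries were D3 replicate 3 labelled PND22, with a mean log2(CPM + 0.5) of -0.41 for mammillary and 3.55 for preoptic markers, D12 replicate 4 labelled PND22, with -0.34 and 4.11, and D12 replicate 4 labelled PND42, with 2.36 for preoptic markers. Leaving out the last library raised the calls of the age contrast from 1210 to 1608.

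The log2 change from labelled PND22 to PND42 differed between DES and vehicle libraries (edgeR interaction, adjusted p under 0.05) for 40 of the genes named in the text or its supporting lists. Over all genes the interaction was called for 5.19%, and some genes were named for their interaction. Among myelin and oligodendrocyte genes the interaction was -1.08 for Ugt8, -1.28 for Cldn11, -1.22 for Mbp, -1.5 for Tf, -1.69 for Anln and -1.64 for Bmp4. Among cholesterol genes it was -0.8 for Cyp51, -0.51 for Idi1, -0.55 for Hmgcs1 and -0.39 for Fdps. Hypothalamic and tanycyte genes had positive values: 1.44 for Nkx2-1, 0.88 for Pdyn, 2.45 for Rax, 1.62 for Gpr50, 1.15 for Fezf1, 1.68 for Crym, 1.43 for Tshr, 1.8 for Nr5a1, 1.78 for Bsx and for Hdc, 2.08 for Fzd5 and 1.87 for Pgr15l. Forebrain, thalamic and neuronal genes had negative values: -2.79 for Zic1, -3.04 for Tbr1, -8.27 for Shox2, -4.98 for Mybpc1, -4.86 for Gabrd, -4.72 for Prkcd, -0.89 for Nefm and -0.55 for Grik1. The hormone genes Oxt and Avp had -3.73 and -2.37. The remaining values were -0.98 for Srd5a1, -0.31 for Cbx7 and for Ezh1, -0.77 for Dbp, 0.98 for Slit2, 0.62 for Tap1, 1.55 for Nr5a2 and 1.45 for Ces1d. Levels of age and region markers differ between these groups as described in the report, and their part was not tested.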

How the results depend on the processing

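The age contrast in DES libraries called 1210 genes. It called 1227 with RLE scaling, 1022 without a filter, 1070 with the stricter filter, 1233 without the dose term, 1547 with DESeq2 and 524 at an adjusted p under 0.01. Without a filter D6 had 61 calls, against 133. DESeq2 called 111 genes in D3, 282 in D6 and 223 in D12, 1 for the age by dose interaction, 1235 for the age by exposure interaction and 1113 in vehicle libraries. Between DES and vehicle libraries it called 4 genes for DES labelled PND22 against vehicle labelled PND42 and 518 where both were labelled PND42. Without D3 replicate 3 and D12 replicate 4 labelled PND22, D12 had 62 calls and the age by exposure interaction 1501, while Tf and Gnrh1 reversed, to -0.01 and 0.16. The age by exposure interaction with a single dose called 79 genes (D3), 170 (D6) and 486 (D12). With the replicate number as a block the age contrast called 1049 genes, D3 54, D6 94, D12 88, the age by exposure interaction 666 and the vehicle contrast 655, and Oxt reversed, to -0.2. Of 15 pairs of libraries with the same dose and number, 1 had deviations correlated above 0.1 (median -0.14) and 0 correlated best with their own number. Whether libraries with the same number share a litter cannot be told from these correlations.

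With each library left out in turn, the age contrast called 966 to 1608 genes, D3 19 to 80, D6 49 to 317, D12 49 to 223, the age by dose interaction 0 to 0, the age by exposure interaction 365 to 1435 and the vehicle contrast 405 to 1327, the last without D6 replicate 1 labelled PND22. Besides these extremes, the interaction fell to 439, 450, 421 and 480 without vehicle replicates 1 and 2 labelled PND22 and 2 and 5 labelled PND42, and the vehicle contrast to 417, 407, 482, 459 and 419 without vehicle replicates 1, 2 and 3 labelled PND22 and 2 and 5 labelled PND42. The log2 fold changes of genes that were not called and changed sign ranged from -0.07 to 0.03 for Pcna, -0.03 to 0.06 for Tf, -0.01 to 0.36 for Esr1 and -0.13 to 0.14 for Oxt. Of 106 genes followed one by one, 80 were called, and 60 of these held call and sign without each library while 20 lost the call at least once. Of 733 values of these genes under the other alternatives, 697 had the same direction and call, 26 lost the call, 7 gained it and 3 reversed. Calls near the threshold, such as Gper1 and Gpr50, were among those lost.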
